A study of Rattus norvegicus with 4 samples.

Results

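Laminin chains, the other structural proteins of basement membranes and the integrin subunits that bind them were measured in cultured rat ovaries with and without glial cell line-derived neurotrophic factor (GDNF). Members were chosen by symbol: every laminin alpha, beta or gamma chain and every integrin alpha or beta subunit with a probe set annotated to that symbol alone, plus the nidogens Nid1 and Nid2, perlecan (Hspg2), agrin (Agrn) and dystroglycan (Dag1). This gave 37 genes, measured by 57 probe sets, of 14217 genes with such a probe set. The brightest probe set by mean signal over the 4 arrays stands for each gene. Of the 37 genes, 29 had a mean above the signal filter of about 21.4 and were tested, and 8 lay below it.

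Ovaries from rat pups 4 days old were kept whole on floating filters for 2 days. The 2 control samples received no factor, and the 2 other samples are labelled as GDNF-treated in their titles and descriptions. The treatment text attached to all 4 samples describes the control only. The sources used here give no dose. All groups shared a culture medium with albumin, insulin, transferrin, ascorbic acid and antibiotics. Each sample was RNA from 6 to 10 pooled ovaries. The labels do not say whether the replicates came from separate litters, so the spread between samples may be partly technical. The strain is likewise not given.

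Basement membranes are thin sheets of matrix that surround follicles, blood vessels and the surface epithelium of the ovary. Laminins are trimers of 1 alpha, 1 beta and 1 gamma chain that assemble into a network on the cell surface. Nidogens and perlecan link this network to type IV collagen. Cells hold it through integrins, which pair 1 alpha with 1 beta subunit, and through dystroglycan. In the neonatal ovary a basement membrane separates the pre-granulosa cells of each primordial follicle from the stroma.

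Signals came from Affymetrix arrays as linear MAS5 values, in which low values are noisy. With 4 arrays, precision is low. The median signal per array was 36.7 to 41.1, and the trimmed mean was 125.03 to 125.04 on every array because the authors scaled it. The 3' to 5' signal ratio of beta-actin was 3.34 to 3.76 in control and 2.62 to 3.61 in GDNF samples. Because whole ovaries were measured, fewer cells of a type and less RNA per cell cannot be told apart. With 2 samples against 2, an exact permutation test cannot give a two-sided p below 0.333, so p-values come from limma fitted over all probe sets.

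GDNF samples and controls differed little in this group of genes. Of the 29 tested members, 14 stood higher and 15 lower with GDNF (51.7% lower, against 51.4% of all genes tested). The median log2 fold change was -0.0028, against -0.0057 over all 10608 genes tested. No member passed the limma threshold of an adjusted p of 0.05 (adjusted p = 0.999 for each), nor did any probe set of the array (0 of 18625, 0%). At an unadjusted p under 0.05 there were 0 members, where 332 of all genes tested (3.13%) lay under it. The typical size of a difference, the median absolute log2 fold change, was 0.13 for the members and 0.11 for all genes tested. Log2 fold changes are differences of log2(signal + 1), GDNF minus control, with limma's moderated standard error (SE).

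Both GDNF samples lay above both controls for 3 tested members (10.3%), where 13.8% of all genes tested did so. Both lay below the controls for 7 tested members (24.1%), where the share of all genes was 18.1%. The 7 were the laminin chain Lama5, the linkers Agrn and Nid2, and the integrin subunits Itga3, Itga5, Itga6 and Itgb5. The 3 on the higher side were Hspg2, Itga1 and Itgal. These counts sit close to the background of the array.

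**Figure D1:**
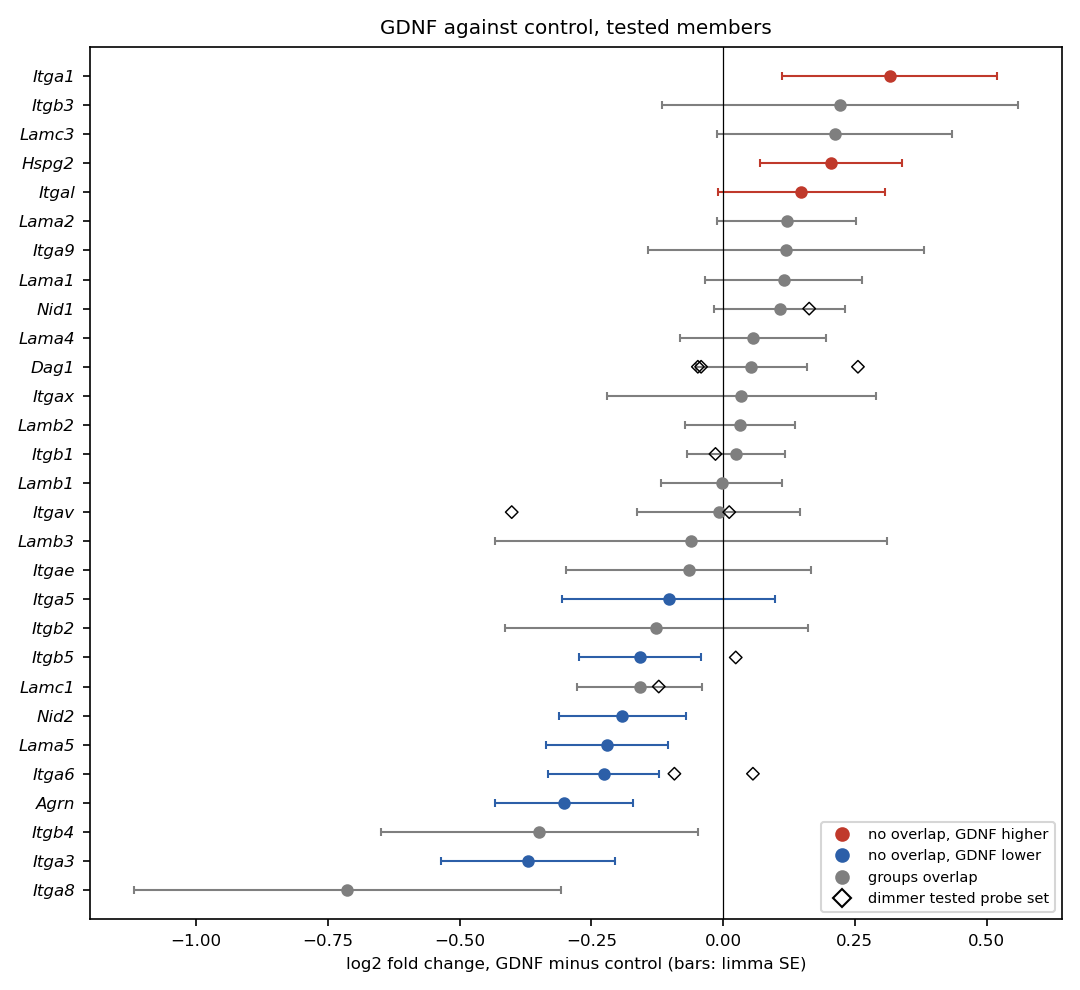
Log2 fold change (GDNF minus control, horizontal axis) of the 29 tested members, with limma SE as bars and dimmer tested probe sets of the same gene as open diamonds. Values run from -0.71 for Itga8 to 0.32 for Itga1. Red and blue points, the members without overlap between groups, lie on both sides of 0.

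Among the laminin alpha chains, Lama5 was the 1 tested chain whose groups did not overlap. Lama5 encodes the alpha5 chain of the laminins of mature epithelial and vascular basement membranes. Its signal was 350.7 and 327 in the controls and 284.7 and 296.2 with GDNF, each given as replicate 1 then 2, an order kept below. Both GDNF values lay below both controls, a log2 fold change of -0.22 (SE 0.12, unadjusted p = 0.0966, limma), or a mean 14.3% lower. Leaving out any 1 sample gave -0.27 to -0.17. Its other 2 probe sets lay below the filter.

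The other tested alpha chains had higher means in GDNF samples, with overlapping groups. Lama2, the alpha chain of muscle and stromal laminin, had signals of 278.6 and 244.1 in controls and 299 and 268.9 with GDNF (log2 fold change 0.12, SE 0.13), or 0.03 with control replicate 2 left out. Lama1, the alpha chain of early embryonic laminin, had 159.4 and 191.2 against 179.9 and 198.8 (0.11, SE 0.15), and -0.02 without control replicate 1. Lama4, which is abundant in vessel walls, had 309 and 292.4 against 347.4 and 281.4 (0.06, SE 0.14), and -0.09 without GDNF replicate 1. Lama3, a chain of epithelial anchoring laminin, lay below the filter at 15 and 11.4 in controls and 9.9 and 4.2 with GDNF. For these chains the difference between treatments was no larger than the spread within them, apart from the dim Lama3, which was not tested.

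The beta and gamma chains overlapped between groups throughout. Lamb1, the beta chain of most early laminins, had signals of 1154.9 and 1014.6 in controls and 1016.4 and 1148.4 with GDNF. Each group held 1 high and 1 low sample, and the log2 fold change was -0.0028 (SE 0.12, 95% limma interval -0.27 to 0.27). Its sign turned without control replicate 1 (0.09), without GDNF replicate 1, with median centring (0.01) and with quantile normalization (0.0046). Lamb2, the beta chain of neuromuscular and kidney laminins, varied least of the beta and gamma chains, at 447.4 and 453.9 against 468.9 and 452.7 (0.03, SE 0.10; 0.0066 without GDNF replicate 1). Lamb3, a chain of epithelial laminin, was the widest apart of these chains, with 68.4 and 30.6 in GDNF samples and 53 and 43.2 in control (-0.06, SE 0.37; 0.51 without GDNF replicate 2). The log2 value of Lamb3 was negative although its mean signal was 48.1 in control and 49.5 in GDNF samples. Lamc1, the gamma chain of most laminins, had 752.1 and 681.3 in controls and 690.2 and 595.6 with GDNF (-0.16, SE 0.12; -0.05 without GDNF replicate 2), with -0.12 in its dimmer probe set. Lamc3, a less common gamma chain, had 52.3 and 44.8 against 63.3 and 49.9 (0.21, SE 0.22; 0.04 without GDNF replicate 1).

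Of the proteins that link or decorate the laminin network, 2 had lower values in both GDNF samples, 1 had higher values in both, and Nid1 overlapped. Over all genes tested these shares were 18.1% and 13.8%, and 4 genes are too few to set apart from them. Agrin is a heparan sulfate proteoglycan that binds laminin and dystroglycan. Agrn signals were 539 and 495 in controls and 460.4 and 381 with GDNF. The groups did not overlap, with GDNF replicate 2 the lowest, and the log2 fold change was -0.30 (SE 0.13, unadjusted p = 0.0531, limma), the smallest p among the members. It was -0.17 without GDNF replicate 2 and -0.44 without GDNF replicate 1. Nid2 signals were 434.9 and 379 in controls and 362.2 and 348.7 with GDNF (-0.19, SE 0.12). Control replicate 1 stood highest, and without it the difference was -0.09.

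Nid1, the other nidogen, had signals of 1356.2 and 1185.6 in controls and 1490 and 1252.2 with GDNF. Replicate 1 was the higher of the pair in each group, and the groups overlapped (log2 fold change 0.11, SE 0.12; -0.02 without GDNF replicate 1). Its dimmer probe set had 0.16. Perlecan (Hspg2), the large proteoglycan of basement membranes, had 150.2 and 154.7 in controls and 169.6 and 182.3 with GDNF. Here both GDNF values were above both controls (0.20, SE 0.13, unadjusted p = 0.17, limma), a mean 15.4% higher. Leaving out any 1 sample gave Hspg2 0.15 to 0.26.

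Dystroglycan (Dag1), a receptor of laminin, agrin and perlecan that is not an integrin, had signals of 691.3 and 725.3 in controls and 702.7 and 768.8 with GDNF. The groups overlapped, with a log2 fold change of 0.05 (SE 0.10, 95% limma interval -0.19 to 0.30), and -0.01 without GDNF replicate 2. Its 3 dimmer probe sets had -0.05, -0.04 and 0.26.

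Of the 3 integrin alpha subunits grouped here as laminin-binding, 2 were tested. In the brightest probe set of each, both GDNF values lay below both controls. Over all genes tested this share was 18.1%, and 2 genes are too few to set apart from it. Itga6 pairs with Itgb1 or Itgb4 and marks many epithelial cells. Its signals were 726.2 and 717.5 in controls and 585.4 and 649.7 with GDNF, with no overlap and nearly equal controls (log2 fold change -0.23, SE 0.11, unadjusted p = 0.069, limma). The dimmer tested probe sets of Itga6 did not show this difference, with 0.06 and -0.09. The mean of its tested probe sets gave -0.09. Itga3, the partner of Itgb1 in the receptor for laminins with the alpha3 or alpha5 chain, had 219.1 and 169.8 in controls and 155.5 and 142.8 with GDNF. Control replicate 1 stood above the other samples of Itga3. The log2 fold change was -0.37 (SE 0.17, unadjusted p = 0.0594, limma), a mean 23.3% lower, and -0.19 without control replicate 1. Itga7, the laminin receptor of muscle, lay below the filter, at 2.8 and 2 in controls and 11.4 and 8.6 with GDNF.

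**Figure D2:**
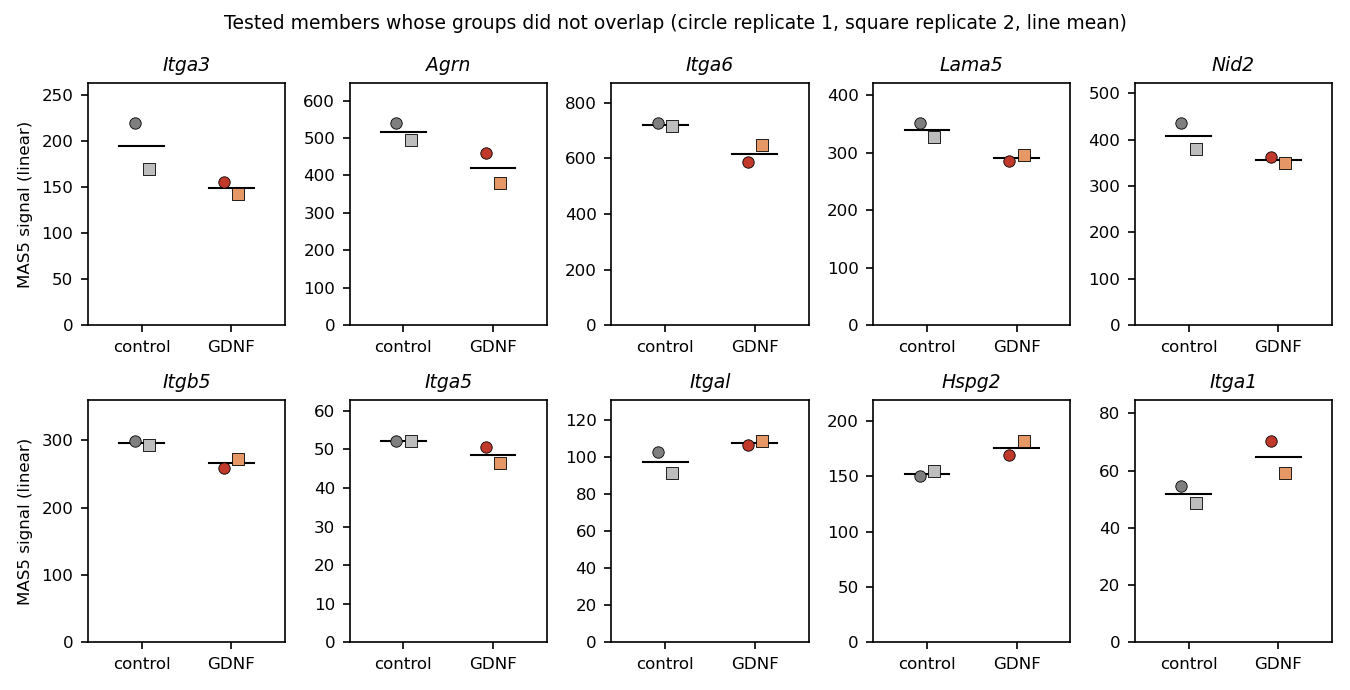
Linear MAS5 signal in each of the 4 samples for the 10 tested members whose groups did not overlap, with circles for replicate 1, squares for replicate 2 and a line at the mean of each group. The first 7 panels are lower in GDNF samples and the last 3 higher, and axes start at 0. Among the lower members the mean was 23.3% lower for Itga3 and 6.99% lower for Itga5.

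Promoter windows show what the sequence at the start of these genes looks like. RefSeq windows of 300 bases (250 before to 50 after the annotated start, build GRCr8) were found for 27 of the 37 members. A GC box, the letters GGGCGG on either strand, occurred in 15 of these 27 windows (55.6%) and in 33.1% of all 33469 windows. The letters TATAAA, on either strand, occurred in 2 of the 27 (7.41%) and in 14.2% of all windows. The set of all windows was not limited to genes measured on the array, and the differences between these shares were not tested. The printed members, whose groups did not overlap, are a ligand chain and a receptor subunit with lower values and a matrix protein with higher values. Capitals mark each GC box, of which Lama5 held 4, Itga3 held 2 and Hspg2 held 6.
Lama5 (chr3:187695925-187696224, minus strand): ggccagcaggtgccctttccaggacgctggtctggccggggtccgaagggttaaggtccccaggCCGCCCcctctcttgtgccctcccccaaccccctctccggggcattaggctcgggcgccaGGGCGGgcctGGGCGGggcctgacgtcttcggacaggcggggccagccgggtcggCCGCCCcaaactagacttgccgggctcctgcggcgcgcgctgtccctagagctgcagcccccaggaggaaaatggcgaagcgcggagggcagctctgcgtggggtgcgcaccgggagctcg
Itga3 (chr10:80518852-80519151, minus strand): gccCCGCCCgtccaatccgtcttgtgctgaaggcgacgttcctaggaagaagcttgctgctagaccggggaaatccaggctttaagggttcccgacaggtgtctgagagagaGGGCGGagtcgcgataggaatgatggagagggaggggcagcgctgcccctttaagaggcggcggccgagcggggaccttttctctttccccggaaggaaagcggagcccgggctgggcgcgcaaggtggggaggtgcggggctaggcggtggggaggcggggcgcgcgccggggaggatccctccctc
Hspg2 (chr5:154960596-154960895, plus strand): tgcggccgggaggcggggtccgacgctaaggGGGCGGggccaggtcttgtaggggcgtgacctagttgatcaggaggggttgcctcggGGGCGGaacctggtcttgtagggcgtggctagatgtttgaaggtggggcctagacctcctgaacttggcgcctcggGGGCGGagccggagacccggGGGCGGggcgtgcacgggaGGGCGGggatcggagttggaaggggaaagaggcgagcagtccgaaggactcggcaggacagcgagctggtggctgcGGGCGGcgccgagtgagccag
Members with lower and with higher values both had GC boxes. A match describes letters and is no measure of factor binding. Of the other 4 members without overlap that had a window, Itga5 held 2 GC boxes, and Agrn, Itga1 and Itgb5 held 0 within these bases.

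Alpha subunits grouped here under other ligands showed no common direction. Itga1, a collagen receptor subunit, had signals of 54.7 and 48.8 in controls and 70.5 and 59.1 with GDNF. Both GDNF values were above the controls, with GDNF replicate 1 the highest, a log2 fold change of 0.32 (SE 0.20, unadjusted p = 0.166, limma), and 0.19 without that sample. Itga11, the other collagen receptor subunit measured, lay below the filter at 2.5 to 7.6.

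The subunits that recognise the RGD motif of fibronectin and vitronectin were close to 0 or wide apart within groups. Itgav had signals of 167.6 and 201 in controls and 170.1 and 195.7 with GDNF, so replicate 2 was the higher of each pair (log2 fold change -0.0086, SE 0.15). It was 0.12 without control replicate 2 and 0.0078 with median centring, and its dimmer probe sets had -0.40 and 0.01. Itga5, the fibronectin receptor subunit, had 52.2 and 52.3 against 50.6 and 46.6. The groups did not overlap, yet the difference was less than its SE (-0.10, SE 0.20), and -0.05 without GDNF replicate 2. Itga8, a subunit of mesenchymal cells, had the lowest value of the 29 tested members, -0.71 (SE 0.41), from 28.8 and 45.6 in controls and 15.1 and 31.1 with GDNF. Its groups overlapped, and without GDNF replicate 1 the difference was -0.22. Itga9, which binds tenascin and other ligands, had 35.9 and 29.7 against 31.5 and 40.1 (0.12, SE 0.26; -0.05 without GDNF replicate 2). Itga2b, the platelet subunit, lay just below the filter at 13.7 to 26.7.

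Of the 3 tested leukocyte subunits, 1 had GDNF values above both controls, a count too small to set apart from the 13.8% of all genes tested. Itgal, the alpha chain of LFA-1 on lymphocytes and other leukocytes, had signals of 102.9 and 91.6 in controls and 106.6 and 108.8 with GDNF (log2 fold change 0.15, SE 0.16), or 0.07 with control replicate 2 left out. The GDNF values were higher by less than the SE. Itgae, the partner of Itgb7 on intraepithelial lymphocytes, was widely spread, at 237.9 and 290.5 against 196.9 and 320.3 (-0.07, SE 0.23), and 0.28 without GDNF replicate 1. Itgax, a marker of dendritic cells and some macrophages, had 37.9 and 33 against 31.8 and 41.3 (0.03, SE 0.26; -0.15 without GDNF replicate 2). Itgam, the alpha chain of myeloid cells, lay below the filter at 2 to 18.6, and so did Itgad at 8.4 to 15.7. In Itgad both GDNF values (8.4 and 10.2) were below both controls (15.7 and 13), at signals too low to be tested.

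Of the beta subunits, Itgb1, the partner of most matrix-binding alpha subunits, had nearly level signals of 1996.7 and 1907 in controls and 2047.6 and 1923.1 with GDNF. The groups overlapped, with a log2 fold change of 0.02 (SE 0.09, 95% limma interval -0.20 to 0.25), and -0.02 without GDNF replicate 1. Its dimmer probe set had -0.01. Itgb5, a partner of Itgav in vitronectin binding, had 299.5 and 293.3 in controls and 258.7 and 272.5 with GDNF. Both GDNF values of Itgb5 lay below the controls (-0.16, SE 0.12), while a dimmer tested probe set had 0.02.

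The remaining beta subunits were dim or wide apart. Itgb4, the partner of Itga6 in hemidesmosomes, had 72.2 and 58.4 in controls and 68.1 and 37.8 with GDNF. Its low mean came from GDNF replicate 2 (log2 fold change -0.35, SE 0.30; 0.07 without that sample). Itgb3, the partner of Itgav and Itga2b, had 21.2 and 38.7 against 30.8 and 36.7 (0.22, SE 0.34; -0.20 without control replicate 1). Itgb2, the common beta chain of leukocytes, had 44.1 and 33.8 against 29 and 42.9 (-0.13, SE 0.29; 0.15 without GDNF replicate 1). Itgb6, a subunit of epithelial cells, and Itgb7, a subunit of lymphocytes, lay below the filter. Itgb6 ran from 6.2 to 12.5 over the 4 samples, while Itgb7 had 1.9 and 7.3 in controls and 10.2 and 9.7 with GDNF.

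**Figure D3:**
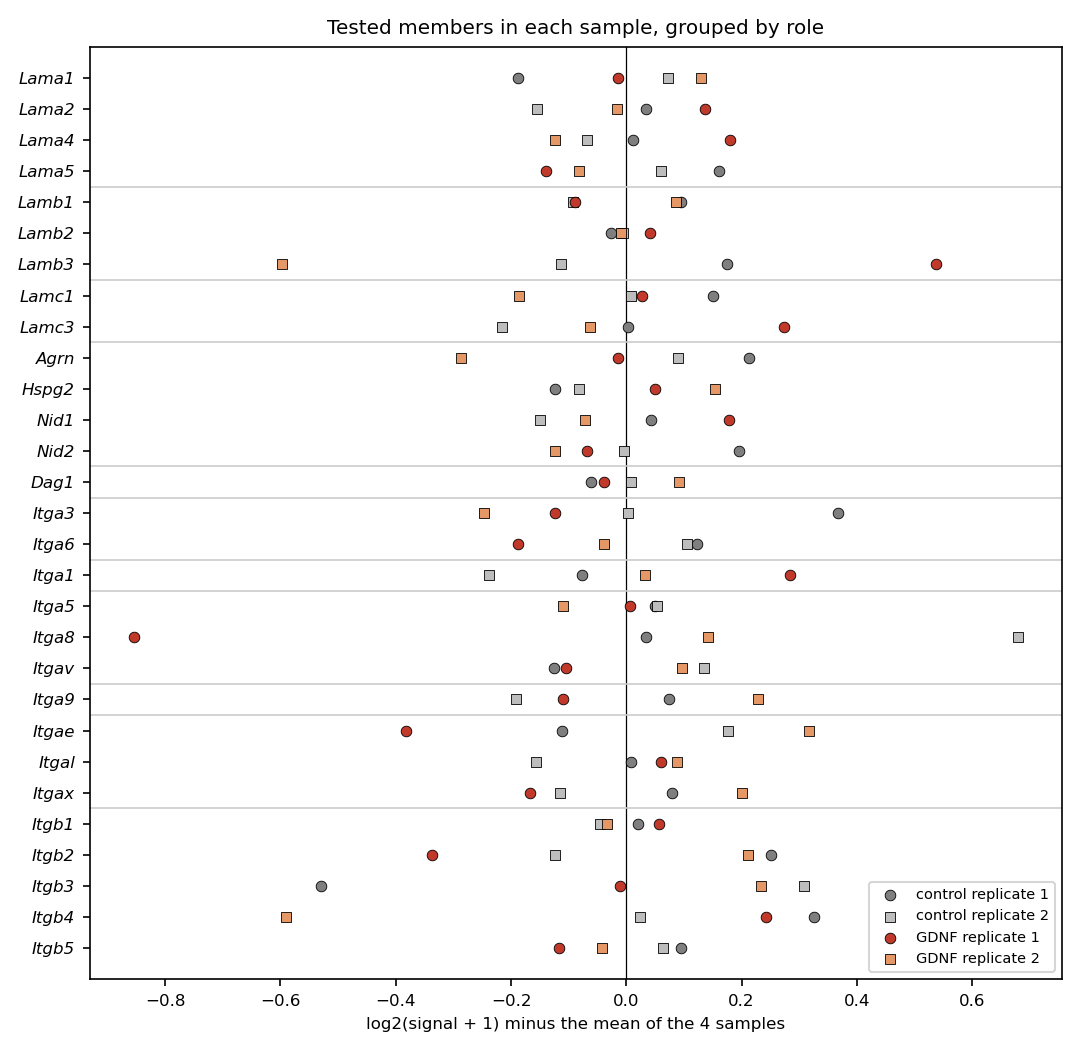
Value of each tested member in each sample, as log2(signal + 1) minus the mean of the 4 samples (horizontal axis), grouped by role from laminin chains at the top to integrin beta subunits at the bottom. Grey symbols are controls and red or orange symbols GDNF samples. The median over the members was 0.04 and -0.0032 in the controls and -0.01 and -0.02 with GDNF.

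The direction of 15 of the 29 tested members held with each of the 4 samples left out in turn, and 14 turned at least once. All 10 members without overlap were among the 15, which follows from the lack of overlap. The others were Itga8, Lama2, Lamb2, Lamc1 and Lamc3.

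Other genes of cell adhesion to matrix were read from lists. Integrin-binding and focal adhesion proteins link integrins to actin. Of the 26 tested, 6 stood higher and 20 lower with GDNF, where 51.4% of all genes tested stood lower. Both GDNF values lay below both controls for 11 of them (42.3%, background 18.1%), and above for 0 (background 13.8%). The median log2 fold change was -0.10, and -0.19 to -0.10 when any 1 sample was left out. None passed the limma threshold, and 3 of the 26 had an unadjusted limma p under 0.05, where 3.13% of all genes tested did. Of the lists below, other integrin ligands had 4 of 11 under it. Collagens of the basement membrane had 1 of 6 and other laminin receptors 1 of 9. Other basement membrane proteins had 0 of 9 and the dystroglycan list 0 of 7. Tns1, a tensin of fibrillar adhesions, was the lowest (-0.61, SE 0.26; -0.28 without control replicate 1). The tetraspanin Cd9, a partner of integrins, was the highest (0.40, SE 0.28), from 901.5 in GDNF replicate 1 against 453.3 to 498 in the other samples, and -0.10 without it.

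Within that list the complex of Ilk, the Lims1 protein, the parvins and Rsu1, which sits on integrin tails, was singled out after its values were seen. Parva had signals of 423.1 and 453.3 in controls and 306.9 and 392.9 with GDNF (log2 fold change -0.33, SE 0.14; -0.16 without GDNF replicate 1). Parvb had 174.1 and 172.1 against 132.5 and 139.7 (-0.35, SE 0.14). For both parvins the GDNF samples were the lower pair. Ilk, the scaffold of the complex, had -0.16 (SE 0.10) and Rsu1 -0.16 (SE 0.14), also without overlap. Lims1 overlapped at 0.10 (SE 0.11), and -0.02 without GDNF replicate 2. Over all genes tested 18.1% lay lower without overlap, but a set picked for its values cannot be set against that share.

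Collagens of the basement membrane had 3 of 6 tested genes without overlap on the lower side (50%, background 18.1%) and 1 on the higher side (16.7%, background 13.8%). These 6 genes are too few to set apart from those shares. Col4a6 was the lowest, with signals of 112.8 and 91.3 in controls and 75.2 and 78 with GDNF (log2 fold change -0.40, SE 0.18), or -0.25 with control replicate 1 left out. Col4a5, with which it forms type IV collagen trimers and which is named after its values were seen, had 652.9 and 637.2 against 482.1 and 554.3 (-0.32, SE 0.11). Col15a1 was the highest at 0.37 (SE 0.16; 0.20 without GDNF replicate 1). The list median was -0.09, with -0.06 without control replicate 2 and -0.05 without the signal filter.

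Of other laminin receptors, 2 of 9 tested genes lay without overlap on the higher side (22.2%, background 13.8%) and 3 on the lower side (33.3%, background 18.1%). These 9 genes are too few to set apart from those shares. Their median was -0.15, with -0.01 without GDNF replicate 2 and -0.05 without control replicate 1. The syndecan Sdc1 was the highest (0.27, SE 0.11) and Sdc3 the lowest (-0.56, SE 0.28). Other integrin ligands had 2 of 11 on the higher side (18.2%) and 3 on the lower (27.3%), again too few to set apart from the same background. The median of the ligands, -0.12, turned to 0.21 without GDNF replicate 2 and to 0.03 without control replicate 1. In that list Ccn2, a matricellular protein, had 488.2 and 522.7 in controls and 623.3 and 808.8 with GDNF (0.49, SE 0.14; 0.30 without GDNF replicate 2). Tnc, the glycoprotein tenascin C, had 87.9 and 89.5 against 65.5 and 64 (-0.45, SE 0.17). Both differed by more than the range within their groups in this list, and neither passed the limma threshold (adjusted p = 0.999).

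Other basement membrane and laminin-associated proteins had 2 of 9 tested genes without overlap on the higher side (22.2%, background 13.8%) and 1 on the lower (11.1%, background 18.1%). These 9 genes are likewise too few to set apart from the background. Ntn1, the guidance molecule netrin 1, was the highest (0.25, SE 0.23; 0.15 without control replicate 1) and the fibulin Fbln1 the lowest (-0.17, SE 0.12; -0.10 without that sample). Their median of -0.03 turned when a sample was left out, to 0.09 without GDNF replicate 1, 0.08 without control replicate 2 and 0.02 without control replicate 1, and was -0.13 without GDNF replicate 2. The dystroglycan complex and its glycosylation enzymes had no gene without overlap among 7 tested (background 13.8% higher and 18.1% lower). These 7 genes are too few to set apart from those shares. Their median was -0.03, with -0.13 without control replicate 2, -0.08 without GDNF replicate 2 and -0.05 without control replicate 1. Sgcb, a sarcoglycan, was the highest there (0.24, SE 0.24; -0.13 without control replicate 2). Utrn, the cytoskeletal protein utrophin, was the lowest (-0.38, SE 0.34; 0.05 without GDNF replicate 2).

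**Figure D4:**
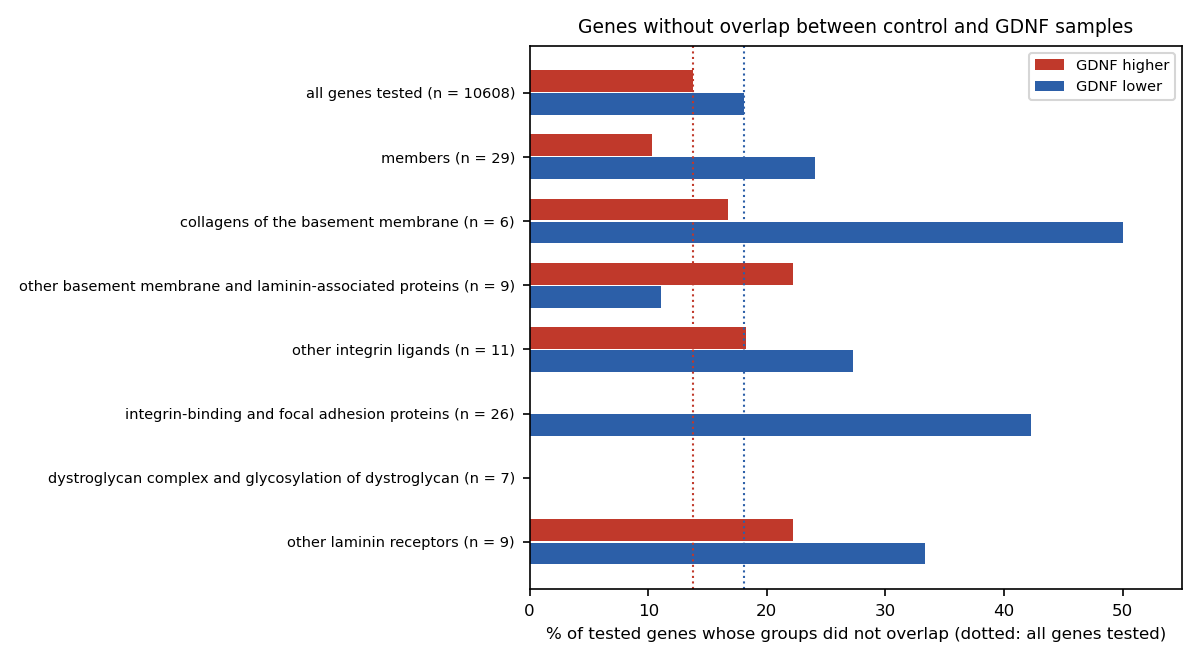
Share of tested genes whose 2 GDNF values lie above (red) or below (blue) both controls, in percent, for all genes tested, the members and 6 lists of related genes, with n tested beside each name. Dotted lines give the shares over all genes, 13.8% and 18.1%. The members stand at 10.3% and 24.1%, and the focal adhesion list at 0% and 42.3%.

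Markers of the cell types that a whole ovary holds were read in the same samples, in which 51.4% of all genes tested stood lower with GDNF. Surface epithelium markers, the 6 with a probe set all at a lower mean in GDNF samples, summed to a signal of 5416 to 6446 in control and 4723 to 5285 in GDNF samples. Most of that sum was Krt19, at 4090.6 and 3632 against 3364.9 and 3236.1. Both GDNF values lay below both controls for 2 of the 6 (33.3%, background 18.1%), and the other markers overlapped. The median log2 fold change of the list was -0.23, and -0.02 without control replicate 1. The 7 tested smooth muscle and pericyte markers also had lower means, 4 of them without overlap (57.1%, background 18.1%). With Rgs5, which lay below the filter, this list summed to 825 to 829 in control and 700 to 704 in GDNF samples. The median of its tested markers was -0.20, or -0.08 without control replicate 1. Endothelial markers summed to 1369 to 1387 in control and 1204 to 1288 in GDNF samples, with Flt1 below the filter and 6 of 6 tested lower. Most of that sum was Kdr, at 902.6 and 920.4 against 817.9 and 777.9. Kdr was the 1 tested endothelial marker without overlap (16.7%, background 18.1%). The median of this list was -0.11. Leukocyte marker sums overlapped widely (861 to 1097 against 736 to 1157), with 7 of 8 markers lower. Both GDNF values were below both controls for 2 of the 8 (25%, background 18.1%). The median of this list, -0.14, ran from -0.37 without GDNF replicate 1 to 0.02 without GDNF replicate 2. Platelet markers summed to 166 to 186 and 156 to 158, with Pf4 the 1 tested. Stromal and theca marker sums overlapped (15304 to 16119 and 15404 to 15789), with 1 of 8 markers higher without overlap (12.5%, background 13.8%). Oocyte markers, 5 of 5 higher, summed to 3840 to 4799 in control and 5098 to 6426 in GDNF samples. Of the 5, 4 lay higher without overlap (80%, background 13.8%). The median of this list was 0.56, or 0.33 without control replicate 1. Granulosa cell markers, 5 of 7 higher, had sums that overlapped, 3220 to 3603 and 3577 to 3800. Of the 7, 3 lay higher without overlap (42.9%, background 13.8%) and 1, Amhr2, lower (14.3%, background 18.1%). The median of this list was 0.18, or 0.09 with the filter at the 60th percentile. No marker passed the limma threshold, and the shares were not tested against the background. The part of these cell types in the values of Lama5, Agrn, Itga3, Itga6 and the other members was not tested.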

How the data were processed

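The authors deposited linear intensities (signals), 1 per probe set, computed with MAS5 per the submitters' processing notes (version not given in the sources used here). Scaling to a fixed trimmed mean means that a change in total RNA cannot be seen. The table held 31099 probe sets, and 57 Affymetrix control probe sets were left out. Names came from the platform annotation held by GEO, and all 37 member symbols matched RefSeq by Entrez identifier. On the scale of log2(signal + 1), limma 3.58.1 (R 4.3.3) was fitted to the 18625 probe sets whose mean reached the 40th percentile (eBayes with trend, group as the only term, Benjamini-Hochberg over all probe sets, two-sided, threshold 0.05). The fit was tested on simulated data. The members, gene lists and tests were chosen with earlier results of these data known. Every member is named. Signals per sample are given for members without overlap, for the brightest of each role and for most others. The highest and lowest tested gene of each list of related genes is named. Genes of the cell type marker lists are named by no such rule. Exceptions named after their values were seen are stated as such. Alternatives changed the pseudocount, filter, normalization, variance model, replicate block, probe set choice and samples used. Genes of the lists without a probe set of their own are not analysed here. Promoter windows are from RefSeq (GRCr8).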

Additional observations from a re-analysis of the deposited data

How the results depend on the processing

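In no alternative did a member pass the limma threshold, and the adjusted p of the tested members stayed at or above 0.310. With the replicate number as a block, 8 probe sets of the array passed and 0 members did, in a fit with 1 residual degree of freedom. The labels do not say what the replicate numbers mark. The deviations of same-numbered samples from their group means correlated at r = 0.32 over the probe sets tested. The count of members without overlap was 3 higher and 7 lower in GDNF samples. Without the filter the counts were 5 higher and 9 lower, and with median centring 6 and 8. They were 2 and 6 with the filter at the 60th percentile, and 3 and 6 with the mean of all tested probe sets. Quantile normalization gave 4 and 7. With 1 sample left out the higher count was 8 to 10. The lower count was then 11 in each case, since fewer samples leave less to overlap. In those fits the lone sample is assumed to vary like the other group. The median log2 fold change of the members was -0.045 to 0.025 with each sample left out. With each sample left out in turn, the log2 fold change changed sign for Dag1 (-0.011 to 0.12), Itga9 (-0.050 to 0.29), Itgae (-0.42 to 0.28), Itgav (-0.14 to 0.12), Itgax (-0.15 to 0.22) and Itgb1 (-0.021 to 0.069). The same held for Itgb2 (-0.40 to 0.15), Itgb3 (-0.20 to 0.64), Itgb4 (-0.77 to 0.068), Lama1 (-0.016 to 0.25), Lama4 (-0.095 to 0.21) and Lamb1 (-0.096 to 0.091). It also held for Lamb3 (-0.63 to 0.51), Nid1 (-0.018 to 0.23), Utrn (-0.81 to 0.054), Cd9 (-0.096 to 0.89), Sgcb (-0.13 to 0.61) and Lims1 (-0.023 to 0.22). Besides, Lamb1 had 0.0046 with quantile normalization and 0.014 with median centring, and Itgav 0.0078 with median centring. The median over all genes tested was -0.0057, and 0.011 with median centring. The marker lists and the genes named after their values were seen were run through the same alternatives, a choice made after seeing the data. Low signals limit the 8 members below the filter, which have no test.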
